A study of Homo sapiens and Mus musculus with 5 samples.

Results

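The single-nucleotide polymorphisms (SNPs) on chromosome 5 were taken as every entry whose name begins with chromosome 5, which gave 18 SNPs of 347 and 54 fragments of 984. The study cloned fragments carrying schizophrenia-linked SNPs and read their enhancer activity by STARR-seq, with a separate count for each allele. Each chromosome 5 SNP was carried by 3 fragments, in which 50, 100 or 150 bases precede the SNP and 150, 100 or 50 follow. The fragments of a SNP overlap in sequence and are not replicates of each other.

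RNA was read in 4 lines. Neuro-2a comes from a mouse neuroblastoma and SH-SY5Y from a human one. PC-12 comes from a pheochromocytoma of the rat, although mouse is given as its organism, and HEK-293T from human embryonic kidney. All were transfected with the same plasmid library and no other treatment is named. Neuro-2a, SH-SY5Y and HEK-293T had 3 RNA libraries each, and PC-12 had RNA libraries 1 and 3, since its replicate 2 was not used here. The 4 lines shared 3 libraries of the plasmid input, so comparisons of different lines with the input are not independent. The fragments were read on plasmids, away from their native chromatin, in cultured lines of 3 species.

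In STARR-seq a fragment is placed within the reporter's transcribed region, so that an active enhancer raises the amount of its own sequence in RNA. Protocadherins are cadherin-related adhesion proteins that give neurons distinct surface identities. In the gamma cluster, variable first exons are spliced to shared constant exons, and each variable exon has its own promoter. Another gene near these SNPs is NMUR2, a receptor for the neuropeptide neuromedin U.

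SNPs carry the names of the tables, made of the chromosome and the position. By these positions, 5_141474289 lay in the protocadherin gamma cluster, inside the annotated span of 19 genes, PCDHGA1 to PCDHGA12 and PCDHGB1 to PCDHGB7. SNPs 5_140767314 and 5_140774630 had PCDHA1, a protocadherin of the alpha cluster, as nearest protein-coding gene. SNPs 5_152721172, 5_152797561 and 5_152943676 lay inside the long noncoding RNA gene LINC01470, with NMUR2 the nearest protein-coding gene. SNPs 5_102388171 and 5_102434022 lay inside SLCO6A1, an organic anion transporter gene, and 5_138556481 inside HSPA9, which encodes the mitochondrial Hsp70 chaperone. SNPs 5_154301187 and 5_154305966 lay inside GALNT10, a gene for an enzyme that starts O-linked glycosylation. The nearest protein-coding gene was MRPS30, a mitochondrial ribosomal protein gene, for 5_44743145. It was RNF180, a ubiquitin ligase gene, for 5_64431109 and 5_64432667, and CCNH, the cyclin of the CDK-activating kinase, for 5_87793684. For 5_109676609 it was MAN2A1, a Golgi mannosidase gene. The sources used here give no genome build for the positions, so these names hold only if the positions are those of GRCh38.p14, the assembly of the gene table used. A nearest gene is a statement of position and not of regulation.

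Of 3 gene lists looked up among the positions, the 53 clustered protocadherins contained 1 SNP and were nearest to 2. The 32 neuronal and synaptic genes of chromosome 5 contained 0 SNPs and were nearest to 5. The 13 housekeeping and mitochondrial genes contained 1 SNP, in HSPA9, and were nearest to 1, through MRPS30. The lists were chosen with earlier results of these data known, and no count for genes outside them is given here. The counts thus describe positions and do not test whether any list lies closer to these SNPs than other genes do.

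Levels are given as CPM, the count scaled to the size of its library, and activity as log2 of an allele's RNA over its input. RNA totals were 5875437 to 10201521 counts and input totals 6380682 to 8421333. Because PCR reads are not independent molecules, this depth bounds counting error only. Of 108 chromosome 5 alleles possible, 90 were present in all 4 tables, 8 in some and 10 in none. The chromosome 5 alleles tested numbered 91 in Neuro-2a, 95 in SH-SY5Y, 97 in PC-12 and 95 in HEK-293T. All of these passed the minimum mean count of 10.

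RNA library 1 stood apart in each line. Across the chromosome 5 alleles its log2 level correlated with the mean input at r = 0.554 in SH-SY5Y (n = 95), 0.767 in Neuro-2a (n = 85), 0.583 in PC-12 (n = 94) and 0.884 in HEK-293T (n = 95). The other RNA libraries had r from 0.264 to 0.603. The activity of RNA libraries 2 and 3 correlated with each other across the chromosome 5 alleles at r = 0.867 in SH-SY5Y (n = 90), 0.687 in Neuro-2a (n = 83) and 0.752 in HEK-293T (n = 79), against 0.287 to 0.640 for either with library 1. HEK-293T library 2 had 16 of 95 chromosome 5 alleles at 0 counts, against 0 to 6 in any other RNA library. The part of these library differences in the results was not tested. The libraries are named beside some results only, and results without such a name can also differ by library.

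Fitted activity was tested by quasi-likelihood in edgeR, and calls were made at a Benjamini-Hochberg adjusted p of 0.05. The fit gives RNA and input libraries a shared spread per allele. Over all alleles, input libraries correlated with the mean input at r from 0.991 to 0.999. The activity of RNA libraries of a line correlated with each other at r from 0.321 to 0.85. The SEs and p-values thus do not measure the spread between RNA libraries alone. In Neuro-2a, 2 of 91 chromosome 5 alleles were called higher in RNA than in input and 1 lower, where 4.08% and 1.7% of all alleles tested were called, or 5.78% in either direction. In SH-SY5Y, 3 of 95 were called higher and 7 lower, where 7.43% and 5.51% were called over all alleles, or 12.9% in either direction. In PC-12, 6 of 97 were called higher and 3 lower, against 5.64% and 4.77% over all alleles, or 10.4% in either direction. In HEK-293T, 0 of 95 were called higher and 1 lower, against 1.35% and 1.02%, or 2.37% in either direction. The largest departure was in SH-SY5Y, with fewer higher calls and more lower calls than those shares of 95 alleles. At an unadjusted p under 0.05 the chromosome 5 alleles numbered 19 in Neuro-2a, 36 in SH-SY5Y, 33 in PC-12 and 27 in HEK-293T, where 25.7% of all alleles in Neuro-2a, 34.3% in SH-SY5Y, 31.4% in PC-12 and 23.1% in HEK-293T were under it. DESeq2 made 27 chromosome 5 calls in HEK-293T (against 24.6% of all alleles called), 40 in PC-12 (against 39.8%), 35 in SH-SY5Y (against 30.7%) and 20 in Neuro-2a (against 28.9%), in either direction. With limma-voom there were 4 in HEK-293T (against 4.04% of all alleles called), 14 in PC-12 (against 13.7%), 14 in SH-SY5Y (against 11.9%) and 6 in Neuro-2a (against 7.61%).

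The 23 calls fell on 19 alleles, of which 16 were called in 1 line, 2 in 2 lines, 1 in 3 lines and 0 in all 4. They came from 13 SNPs. All of the 23 were lost when any 1 of the 3 input libraries was left out, with edgeR adjusted p from 0.0596 to 0.298. The median chromosome 5 activity was -0.14 in Neuro-2a, -0.15 in SH-SY5Y, -0.11 in PC-12 and -0.14 in HEK-293T, against 0.01 in Neuro-2a, -0.01 in SH-SY5Y, -0.01 in PC-12 and -0.11 in HEK-293T over all alleles.

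The protocadherin gamma SNP at 5_141474289 gave the highest activity of any chromosome 5 allele in each of the 4 lines. This was allele 1 of the fragment with 150 bases in front. In Neuro-2a its RNA libraries held 328, 295 and 811 CPM, against input of 8.21 to 8.98 CPM. In SH-SY5Y the RNA libraries held 220, 552 and 644 CPM, against 8.23 to 9.02 CPM in the input. In PC-12 they held 510 and 343 CPM, against 8.21 to 8.94 CPM in the input. Every RNA library of these 3 lines was above every input library.

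HEK-293T differed in its individual values, with 16.3, 0 and 199 CPM in RNA, against 8.55 to 9.38 CPM in the input. Library 2 was at 0 and so the groups overlapped there. The fitted activity was 5.81 ± 0.62 (SE) in Neuro-2a, 5.78 ± 0.54 in SH-SY5Y, 5.65 ± 0.29 in PC-12 and 3.02 ± 2.32 in HEK-293T. The adjusted p by edgeR's quasi-likelihood test was 0.0101 in Neuro-2a, 0.00557 in SH-SY5Y, 0.00477 in PC-12 and 0.508 in HEK-293T. With limma-voom the 3 calls were lost, at adjusted p of 0.323 in SH-SY5Y, 0.327 in Neuro-2a and 0.0890 in PC-12.

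The input behind this ratio was the lowest of all chromosome 5 alleles tested in each line, with 74, 57 and 74 counts in the 3 input libraries. The median input of the chromosome 5 alleles was 476 CPM in Neuro-2a. Allele 1 of the same SNP with 100 bases in front had far more input. That allele's RNA held 995, 1267 and 874 CPM in Neuro-2a, against 944 to 967 CPM in input, and 899, 1520 and 1532 CPM in SH-SY5Y, against 947 to 968 CPM. In HEK-293T it held 1407, 1361 and 1622 CPM, all above the input of 984 to 1006 CPM, with an activity of 0.56 ± 0.14. In PC-12 it held 950 and 1034 CPM, against 944 to 959 CPM. The level of the 150-base fragment in RNA was thus below that of the 100-base fragment in each RNA library, while its ratio to input was above it in 10 of the 11 libraries, with HEK-293T library 2 at 0.

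Allele 1 with 50 bases in front lay below the input in every line. Its RNA held 1169, 754 and 806 CPM in Neuro-2a, 826, 342 and 475 CPM in SH-SY5Y, 1197 and 737 CPM in PC-12 and 1065, 616 and 597 CPM in HEK-293T. The input held 1369 to 1490 CPM over the 4 tables, above every RNA library. The activity was -0.62 in Neuro-2a, -1.36 in SH-SY5Y, -0.53 in PC-12 and -0.94 in HEK-293T, and none of the 4 values was called. The smallest adjusted p was 0.0547, in SH-SY5Y (edgeR).

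Placement of the gamma SNP was tested as the activity of allele 1 in the fragment with more bases in front over that in the fragment with fewer. For 150 over 100 bases the log2 difference was 5.53 ± 0.65 in Neuro-2a, 5.23 ± 0.31 in SH-SY5Y, 5.57 ± 0.33 in PC-12 and 0.06 ± 3.35 in HEK-293T. For 150 over 50 bases it was 6.29 ± 0.61 in Neuro-2a, 7.14 ± 0.83 in SH-SY5Y, 6.19 ± 0.20 in PC-12 and 1.22 ± 3.20 in HEK-293T. All of these but the HEK-293T values were called by edgeR, with adjusted p from 0.00222 to 0.0331. Compared in the RNA libraries alone, without the input, the 150 over 100 difference was -1.25 in PC-12, -1.58 in SH-SY5Y and -1.28 in Neuro-2a. The 150 over 50 difference was then -1.17 in PC-12, -0.22 in SH-SY5Y and -1.07 in Neuro-2a. These differences compare RNA levels only. The input of the 150-base fragment was far below that of the others, so they do not test the sign of the ratio to input. With limma-voom none of these calls was kept except 150 over 50 bases in PC-12, and without RNA replicate 2 the Neuro-2a adjusted p was 0.0875 for 150 over 50 and 0.0831 for 150 over 100 bases.

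The fragment with 100 over the fragment with 50 bases in front, both with ample input, gave a smaller difference in the same direction. It was 0.76 ± 0.33 in Neuro-2a, 1.88 ± 0.56 in SH-SY5Y, 0.63 ± 0.29 in PC-12 and 1.55 ± 0.32 in HEK-293T. It was positive in 11 of 11 RNA libraries and called in 0 lines, with edgeR adjusted p from 0.140 to 0.393.

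Allele 2 of the gamma SNP did not share the high ratio. With 150 bases in front its RNA held 0, 92.4 and 184 CPM in Neuro-2a, 32.9, 167 and 225 CPM in SH-SY5Y, 0 and 365 CPM in PC-12 and 254, 484 and 361 CPM in HEK-293T. The input held 176 to 211 CPM over the 4 tables. The groups overlapped in 3 lines, and in HEK-293T all RNA libraries were above all input libraries, with an activity of 0.92 ± 0.36.

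The allelic effect, the activity of allele 2 over that of allele 1 of the same fragment, was -6.44 ± 0.51 in SH-SY5Y (edgeR adjusted p = 0.0200), with -7.19, -6.18 and -5.97 in RNA libraries 1, 2 and 3. This was the 1 allelic effect called among 41 chromosome 5 fragments in SH-SY5Y, where 0.166% of all fragments were called. The effect was -7.93 ± 3.05 in Neuro-2a, -10.11 ± 5.76 in PC-12 and -0.06 ± 3.59 in HEK-293T, none of them called. In Neuro-2a and PC-12, allele 2 was at 0 in RNA library 1, and in HEK-293T allele 1 was at 0 in library 2. Without RNA replicate 2 the SH-SY5Y effect was -6.58 with an adjusted p of 0.124, and in the RNA libraries alone it was -1.99 with an adjusted p of 0.123. Over all alternatives the adjusted p ran from 5.73e-29 with DESeq2 to 0.321 without input library 2, and it was 0.162 with limma-voom.

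With 100 bases in front the allelic effect was small in Neuro-2a (0.27 ± 0.50), SH-SY5Y (-0.22 ± 0.34) and PC-12 (-0.27 ± 0.17). In HEK-293T it was -1.75 ± 3.17, with allele 2 at 0 in RNA library 2. There it was 0.03 in library 1 and -0.36 in library 3. Allele 2 with 50 bases in front was not analysed here.

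The SNP nearest PCDHA1 at 5_140774630 was on the low side of the input. Of its 24 fitted activities 3 were positive, and the range was -1.68 to 0.20. Allele 1 with 50 bases in front held 262 and 474 CPM in PC-12 RNA, against 1128 to 1151 CPM in the input. Both RNA libraries were below every input library, and the activity was -1.63 ± 0.30 (edgeR adjusted p = 0.0488). With DESeq2's size factors in place of the main scaling the adjusted p was 0.0509. The same allele was also below all input in SH-SY5Y, with -1.13 ± 0.32, and in HEK-293T, with -1.41 ± 0.31, and in Neuro-2a it was 0.13 ± 0.42 with overlapping groups.

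At 5_140774630 the placement of the SNP gave 1 call, for allele 2 in PC-12. There the 100-base fragment held 1004 and 1383 CPM in RNA against 1190 to 1203 CPM in input, and the 50-base fragment held 285 and 544 CPM in RNA against 1046 to 1094 CPM in input. The placement difference of 100 over 50 bases was 1.43 ± 0.20 (edgeR adjusted p = 0.0484). It was 1.23 ± 0.23 in SH-SY5Y, -1.67 ± 3.21 in Neuro-2a and 0.66 ± 0.71 in HEK-293T. The 100-base fragment was at 0 in Neuro-2a library 2. In PC-12 RNA alone it was 1.58, with an adjusted p of 0.445. Allele 2 with 150 bases in front was below all input in each of the 4 lines, with activities of -0.80 in SH-SY5Y, -1.01 in Neuro-2a, -1.24 in PC-12 and -0.93 in HEK-293T.

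The other SNP nearest PCDHA1, at 5_140767314, had 14 fitted values. Of its 6 alleles, 2 were in no table, and allele 1 with 100 and with 150 bases in front was missing in Neuro-2a. Allele 1 with 50 bases in front held 1127 and 869 CPM in PC-12 RNA, against 236 to 255 CPM in input. Both RNA libraries were above the input and the activity was 2.03 ± 0.16 (edgeR adjusted p = 0.00821). In Neuro-2a the same allele had 239, 280 and 772 CPM in RNA, in SH-SY5Y 318, 638 and 205 CPM and in HEK-293T 1028, 419 and 107 CPM. In these 3 lines the RNA values overlapped the input of 236 to 268 CPM, and the activities were 0.66 ± 0.45 in SH-SY5Y, 0.81 ± 0.52 in Neuro-2a and 1.03 ± 0.77 in HEK-293T. Allele 1 with 100 and with 150 bases in front had input of 24.8 to 60.5 CPM, and 0 of its values were called.

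SNP 5_152943676, inside LINC01470 and nearest NMUR2, was low throughout. All 18 of its fitted activities were negative, from -7.48 to -0.56, and 5 were called. Allele 1 with 50 bases in front held 45.8, 46.0 and 86.1 CPM in SH-SY5Y RNA, against 1097 to 1171 CPM in input. In PC-12 it held 49.5 and 42.5 CPM, against 1094 to 1159 CPM. The groups were far apart, with activities of -4.25 ± 0.34 in SH-SY5Y (edgeR adjusted p = 0.00542) and -4.60 ± 0.16 in PC-12 (0.00477).

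In Neuro-2a the same allele had 184, 78.3 and 3.09 CPM in RNA, and in HEK-293T 53.1, 0 and 61.4 CPM, with input of 1094 to 1217 CPM over both tables. All of these RNA libraries were below the input as well. The activities of -3.67 ± 1.29 in Neuro-2a and -4.93 ± 1.85 in HEK-293T were not called, with adjusted p of 0.148 and 0.189 by edgeR, and their errors were larger.

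Allele 2 with 100 bases in front held 0.384, 18.6 and 0 CPM in SH-SY5Y RNA and 8.62 and 0 CPM in PC-12 RNA, against 762 to 798 CPM in input. These were the lowest fitted activities on chromosome 5, at -6.96 ± 2.07 in SH-SY5Y and -7.48 ± 2.08 in PC-12. Neither was called (edgeR adjusted p of 0.0744 in SH-SY5Y and 0.103 in PC-12), and the fitted sizes depend on how counts of 0 are handled. The lowest chromosome 5 values in Neuro-2a and HEK-293T were those of allele 1 with 50 bases in front. Allele 2 with 100 bases in front was in 2 of the 4 tables, as were allele 2 with 50 and allele 1 with 100 bases in front.

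The fragment of this SNP with 150 bases in front carried much more RNA. Allele 1 held 744, 667 and 887 CPM in Neuro-2a, 784, 548 and 593 CPM in SH-SY5Y, 634 and 398 CPM in PC-12 and 982, 1029 and 691 CPM in HEK-293T. The input held 1209 to 1358 CPM over the 4 tables, so every RNA library was below it. The activities were -0.74 ± 0.17 in Neuro-2a, -0.998 ± 0.18 in SH-SY5Y, -1.30 ± 0.25 in PC-12 and -0.56 ± 0.20 in HEK-293T, and the SH-SY5Y value was called (edgeR adjusted p = 0.0281).

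The placement difference of 150 over 50 bases for allele 1 was 3.30 ± 0.40 in SH-SY5Y (edgeR adjusted p = 0.0340) and 3.27 ± 0.22 in PC-12 (0.0152). It was 3.78 ± 1.70 in Neuro-2a and 5.23 ± 2.63 in HEK-293T, where it was not called. In RNA alone the difference had the same direction and a like size, 3.49 in SH-SY5Y, with an adjusted p of 0.0640, and 3.45 in PC-12, with one of 0.438. Without RNA replicate 2 the SH-SY5Y adjusted p was 0.0513, and with limma-voom the PC-12 adjusted p was 0.0710.

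Allele 2 with 150 bases in front was lower again. It held 791, 247 and 522 CPM in Neuro-2a, 399, 185 and 298 CPM in SH-SY5Y, 530 and 166 CPM in PC-12 and 556, 291 and 332 CPM in HEK-293T, against 1503 to 1625 CPM in input. All RNA libraries were below all input. The activity was -1.57 ± 0.43 in Neuro-2a, -2.40 ± 0.31 in SH-SY5Y, -2.14 ± 0.57 in PC-12 and -2.03 ± 0.29 in HEK-293T, called in SH-SY5Y (edgeR adjusted p = 0.0136) and in HEK-293T (0.0407). The HEK-293T value was the 1 chromosome 5 call in that line, and without RNA replicate 3 it was -1.92 with an adjusted p of 0.0779.

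The allelic effect at 5_152943676 with 150 bases in front was negative in 11 of 11 RNA libraries. It was -0.98 ± 0.44 in Neuro-2a, -1.45 ± 0.24 in SH-SY5Y, -1.03 ± 0.35 in PC-12 and -1.50 ± 0.32 in HEK-293T. None was called, with edgeR adjusted p of 0.205 in SH-SY5Y, 0.494 in Neuro-2a, 0.590 in PC-12 and 0.677 in HEK-293T.

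The other SNPs inside LINC01470 had 1 call each, both higher in RNA. At 5_152721172, allele 2 with 50 bases in front held 836 and 787 CPM in PC-12 RNA, against 364 to 385 CPM in input, with an activity of 1.10 ± 0.11 (edgeR adjusted p = 0.0126). The same allele ranged from 0 to 521 CPM in the RNA libraries of the other lines and overlapped its input in each. At 5_152797561, allele 2 with 50 bases in front held 1445, 1741 and 1958 CPM in SH-SY5Y RNA, against 1003 to 1080 CPM in input, with an activity of 0.70 ± 0.15 (adjusted p = 0.0391). It was 0.35 ± 0.19 in Neuro-2a, -0.11 ± 0.23 in PC-12 and 0.43 ± 0.12 in HEK-293T. Without RNA replicate 2 the SH-SY5Y adjusted p was 0.0603.

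At 5_152721172, allele 2 with 100 bases in front showed the split between RNA libraries. Its RNA held 43.1, 615 and 915 CPM in Neuro-2a, 91.7, 658 and 1037 CPM in SH-SY5Y, 230 and 1096 CPM in PC-12 and 79.3, 527 and 743 CPM in HEK-293T. The input held 115 to 128 CPM. Library 1 was below the input in 3 lines, and libraries 2 and 3 were far above it. The activities were 2.12 ± 1.01 in Neuro-2a, 2.30 ± 0.82 in SH-SY5Y, 2.47 ± 0.69 in PC-12 and 1.85 ± 0.79 in HEK-293T, and none was called, with edgeR adjusted p from 0.104 to 0.258.

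SNP 5_44743145, nearest MRPS30, had 0 calls for activity among its 21 fitted values, which ran from -2.25 to 1.97. With 150 bases in front the alleles differed in level. Allele 2 held 0, 79.7 and 579 CPM in Neuro-2a RNA, 190, 785 and 800 CPM in SH-SY5Y, 179 and 846 CPM in PC-12 and 173, 1284 and 870 CPM in HEK-293T, against 184 to 204 CPM in input. Allele 1 held 728, 380 and 39.8 CPM in Neuro-2a, 614, 63.2 and 431 CPM in SH-SY5Y, 684 and 209 CPM in PC-12 and 822, 313 and 70.5 CPM in HEK-293T, against 976 to 1043 CPM in input. Allele 1 was below all input in every line, while allele 2 was below or within its input in RNA library 1 and above it in libraries 2 and 3 apart from library 2 of Neuro-2a.

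The activity of allele 2 there was 0.20 ± 2.04 in Neuro-2a, 1.62 ± 0.56 in SH-SY5Y, 1.43 ± 0.68 in PC-12 and 1.97 ± 0.70 in HEK-293T, and that of allele 1 -1.37 ± 0.92 in Neuro-2a, -1.43 ± 0.76 in SH-SY5Y, -1.14 ± 0.55 in PC-12 and -1.36 ± 0.81 in HEK-293T. The allelic effect was 0.05 ± 4.61 in Neuro-2a, 3.30 ± 1.44 in SH-SY5Y, 2.42 ± 1.43 in PC-12 and 3.79 ± 1.72 in HEK-293T. The SH-SY5Y and HEK-293T values were the highest allelic effects of chromosome 5 in those lines. None was called (edgeR adjusted p from 0.355 to 1.00), and within SH-SY5Y the effect was 0.68 in RNA library 1, 6.01 in library 2 and 3.26 in library 3.

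With 50 bases in front, the allelic effect at 5_44743145 was -2.72 ± 0.93 in Neuro-2a, 0.27 ± 0.21 in SH-SY5Y, -0.04 ± 0.20 in PC-12 and -0.06 ± 0.53 in HEK-293T. Allele 2 held 266, 47.2 and 11.5 CPM in Neuro-2a RNA, against 371 to 391 CPM in input. Allele 1 held 1176, 943 and 509 CPM there, against 912 to 937 CPM in input. Of the 39 chromosome 5 fragments tested, it alone had an allelic ratio in RNA that differed between lines at an unadjusted p under 0.05. It was also the only one among all 514 fragments tested, or 0.195%, a smaller share than chance alone would give at this threshold. The unadjusted p was 0.0464 in edgeR, and the adjusted p was 1.00.

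Of the pair of SNPs nearest RNF180, 5_64432667 had 1 call and 5_64431109 had 1 call, both in SH-SY5Y. At 5_64432667, allele 1 with 100 bases in front held 488, 959 and 984 CPM in SH-SY5Y RNA, against 271 to 294 CPM in input, an activity of 1.53 ± 0.31 (edgeR adjusted p = 0.0344). It was 0.79 ± 0.51 in Neuro-2a, 0.53 ± 0.22 in PC-12 and 1.03 ± 0.35 in HEK-293T. The SH-SY5Y call was lost without RNA replicate 2 (adjusted p = 0.0679), without replicate 3 (0.0671) and with limma-voom (0.0759). At 5_64431109, allele 2 with 100 bases in front held 437, 340 and 348 CPM in SH-SY5Y RNA, against 679 to 698 CPM in input, an activity of -0.88 ± 0.18 (adjusted p = 0.0352). It was 0.07 ± 0.11 in PC-12, with 735 and 699 CPM in RNA against 677 to 692 CPM in input. Over the 4 lines it ran from -1.03 to 0.07, so a line without a call had a lower value than SH-SY5Y. Without RNA replicate 2 the SH-SY5Y adjusted p was 0.0509.

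The highest fitted allelic effects in Neuro-2a and PC-12 were those of 5_64432667 with 50 bases in front, at 5.55 ± 2.65 in Neuro-2a and 7.22 ± 4.25 in PC-12. Allele 1 was at 0 counts in RNA library 1 of both lines, while it held 1316 to 1433 CPM in input there. In the RNA libraries without a 0 the effect was 3.85 and 4.16 in Neuro-2a and 2.89 in PC-12. The part of the 0 counts in the fitted sizes was not tested. Allele 2 held 120, 805 and 442 CPM in Neuro-2a RNA and 82.7 and 478 CPM in PC-12 RNA, against 135 to 139 CPM in input. In HEK-293T, where no library was at 0, the effect was 1.65 ± 0.87. None of these was called.

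Inside SLCO6A1, 5_102434022 had 4 calls and 5_102388171 had 0. Allele 1 of 5_102434022 with 50 bases in front held 1600, 3624 and 3380 CPM in Neuro-2a RNA, against 608 to 618 CPM in input, an activity of 2.23 ± 0.34 (edgeR adjusted p = 0.0261). All 3 libraries were far above the input. It was 0.64 ± 0.49 in SH-SY5Y, 0.90 ± 0.39 in PC-12 and 0.68 ± 0.37 in HEK-293T.

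With more bases in front, the activity at 5_102434022 was lower. Allele 2 with 150 bases held 418, 409 and 161 CPM in SH-SY5Y RNA, against 1419 to 1562 CPM in input, an activity of -2.16 ± 0.39 (edgeR adjusted p = 0.0281). Allele 2 with 100 bases held 736, 530 and 574 CPM, against 1176 to 1238 CPM, an activity of -0.97 ± 0.18 (adjusted p = 0.0279). Allele 1 with 150 bases held 526 and 575 CPM in PC-12 RNA, against 1092 to 1121 CPM in input, an activity of -1.01 ± 0.11 (adjusted p = 0.0165). Both alleles with 150 bases in front were below all input in each of the 4 lines. Without RNA replicate 2 the adjusted p of allele 2 with 150 bases in SH-SY5Y was 0.0551.

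The placement difference of 150 over 50 bases at 5_102434022 was negative in 11 of 11 RNA libraries for allele 2. It was -2.71 ± 0.80 in Neuro-2a, -1.78 ± 0.42 in SH-SY5Y, -2.26 ± 0.60 in PC-12 and -1.73 ± 0.52 in HEK-293T. None was called, and the smallest edgeR adjusted p was 0.0866, in SH-SY5Y. The fitted difference of 150 over 50 bases for allele 1 of 5_152943676 was positive in all lines, and in RNA alone too in SH-SY5Y and PC-12.

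At 5_102388171 the 24 fitted values ran from -1.40 to 2.06. Allele 1 with 100 bases in front held 180, 1645 and 1956 CPM in SH-SY5Y RNA and 371, 1165 and 2068 CPM in HEK-293T RNA, against 263 to 344 CPM in input. Library 1 was below the input in SH-SY5Y and above it in HEK-293T, and the activities of 2.06 ± 0.82 in SH-SY5Y and 1.94 ± 0.62 in HEK-293T were not called.

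Inside HSPA9, 5_138556481 had allele 1 with 100 bases in front below all input in every line. It held 919, 560 and 619 CPM in Neuro-2a RNA, 824, 619 and 237 CPM in SH-SY5Y, 573 and 33.3 CPM in PC-12 and 1135, 518 and 436 CPM in HEK-293T, against 1979 to 2105 CPM in input. This was the allele with the highest input on chromosome 5. The activity was -1.52 ± 0.23 in Neuro-2a, -1.84 ± 0.45 in SH-SY5Y, -2.72 ± 1.28 in PC-12 and -1.58 ± 0.39 in HEK-293T, called in Neuro-2a (edgeR adjusted p = 0.0260) and just missing the threshold in SH-SY5Y (0.0504).

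Allele 2 of the same HSPA9 fragment was nearer to its input, and the allelic effect was positive in 11 of 11 RNA libraries. It was 1.69 ± 0.66 in Neuro-2a, 1.66 ± 0.63 in SH-SY5Y, 3.23 ± 1.95 in PC-12 and 1.28 ± 0.58 in HEK-293T, and none was called (edgeR adjusted p from 0.355 to 0.677). Its size varied between libraries, from 0.01 in HEK-293T library 1 to 5.80 in PC-12 library 3.

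With 150 bases in front, allele 2 of the HSPA9 SNP held 336, 2599 and 3509 CPM in Neuro-2a RNA, 542, 2308 and 2224 CPM in SH-SY5Y, 479 and 3310 CPM in PC-12 and 359, 2800 and 2907 CPM in HEK-293T. The input held 363 to 396 CPM. RNA library 1 was below all input in Neuro-2a and HEK-293T and above it in SH-SY5Y and PC-12, and libraries 2 and 3 were far above it in every line. The activities of 2.17 ± 0.55 in SH-SY5Y, 2.52 ± 0.82 in Neuro-2a, 2.35 ± 0.83 in PC-12 and 2.38 ± 0.75 in HEK-293T were not called, with the smallest edgeR adjusted p at 0.0555 in SH-SY5Y. For allele 1 the placement difference of 150 over 100 bases was 1.48 ± 0.24 in SH-SY5Y (adjusted p = 0.0467). It was -0.57 in RNA alone, which leaves out the input of the fragments, and without RNA replicate 2 its adjusted p was 0.0574.

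SNP 5_109676609, nearest MAN2A1, had 1 call. Allele 2 with 100 bases in front held 22.4, 25.8 and 9.53 CPM in SH-SY5Y RNA, against 156 to 172 CPM in input. The activity was -3.10 ± 0.50 (edgeR adjusted p = 0.0227, and 0.0684 with limma-voom). In Neuro-2a it held 44.8, 174 and 72.2 CPM and overlapped the input, with -0.76 ± 0.65. It was below all input in PC-12, with -1.38 ± 0.71, and in HEK-293T, with -0.91 ± 0.62. Allele 2 with 50 bases in front was below all input in the 4 lines, at -1.60 in SH-SY5Y, -1.05 in Neuro-2a, -0.58 in PC-12 and -1.28 in HEK-293T.

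Inside GALNT10, 5_154305966 had 1 call. Allele 1 with 100 bases in front held 684 and 812 CPM in PC-12 RNA, against 405 to 420 CPM in input, an activity of 0.86 ± 0.13 (edgeR adjusted p = 0.0313). It was 0.49 ± 0.33 in SH-SY5Y, 0.58 ± 2.00 in Neuro-2a and 0.89 ± 0.39 in HEK-293T. At 5_154301187, 19 of 24 fitted values were positive and 0 were called. Its highest was allele 1 with 50 bases in front in HEK-293T, with 170, 1012 and 668 CPM in RNA against 113 to 130 CPM in input, an activity of 2.35 ± 0.66. The effect of allele 2 over allele 1 in that fragment was -1.27 ± 0.43 in SH-SY5Y, with an unadjusted p of 0.0278 and an adjusted p of 0.355 by edgeR. It was -1.65 ± 0.76 in HEK-293T, -1.03 ± 0.69 in PC-12 and 0.33 ± 0.83 in Neuro-2a, none of them called.

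SNP 5_87793684, nearest CCNH, had 24 values from -1.68 to 0.53 and 0 calls. Allele 2 with 150 bases in front was the lowest of its alleles, at -1.68 to -0.65 over the 4 lines, with 1 of 11 RNA libraries above the mean input. In HEK-293T it held 249, 0 and 154 CPM in RNA against 415 to 442 CPM in input. That allele's effect over allele 1, -2.70 ± 3.22, was the lowest allelic effect in HEK-293T. In the HEK-293T RNA libraries without a 0 the effect was -0.96 and -1.28. Both alleles with 100 bases in front held 724 to 2356 CPM in RNA, against 1149 to 1389 CPM in input.

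Counted over all chromosome 5 alleles, groups that did not overlap were more common than calls. In Neuro-2a, 12 alleles had all RNA above all input and 26 had all RNA below, where 20.5% and 24.7% of all alleles did. In SH-SY5Y the counts were 13 and 36, where the shares over all alleles were 20.7% and 28.7%. In PC-12 they were 24 and 42, against 26.2% and 33.5% over all alleles, and in HEK-293T 17 and 25, against 16.6% and 26.9%. Above all input in each of the 4 lines were 2 of 90 alleles, or 2.22%, against 6.96% of all 1436 alleles present in every table. Below all input in each of the 4 lines were 12 of 90 alleles, or 13.3%, against 10.7% of all 1436. Beside those named above, they included allele 1 of 5_64432667 with 50 bases in front.

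For allelic effects, 0 of 39 chromosome 5 fragments were called in Neuro-2a, where 0.187% of all fragments were. There were 0 calls of 43 in PC-12 and 0 of 42 in HEK-293T, where 0% of all fragments were called. At an unadjusted p under 0.05 there were 7 in Neuro-2a, 6 in SH-SY5Y, 4 in PC-12 and 2 in HEK-293T, where the shares over all fragments were 4.13% in HEK-293T, 7.24% in PC-12, 13.5% in SH-SY5Y and 10.9% in Neuro-2a. DESeq2 called 7 in Neuro-2a, 2 in SH-SY5Y, 8 in PC-12 and 2 in HEK-293T, where its calls over all fragments were 1.82% in HEK-293T, 10.7% in PC-12, 4.49% in SH-SY5Y and 12.7% in Neuro-2a. The median absolute effect was 0.86 in Neuro-2a, 0.94 in SH-SY5Y, 0.87 in PC-12 and 1.26 in HEK-293T on chromosome 5, against 0.92 in Neuro-2a, 0.75 in SH-SY5Y, 0.79 in PC-12 and 1.01 in HEK-293T over all fragments. The same sign in all 11 RNA libraries was seen in 2 of 39 fragments, the ones at 5_138556481 and 5_152943676 described above. This was 5.13%, against 4.09% of all 514 fragments with both alleles in every table.

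For placement, the chromosome 5 pairs called higher with more bases in front were 4 of 84 in SH-SY5Y, 2 of 78 in Neuro-2a, 4 of 88 in PC-12 and 0 of 84 in HEK-293T. Over all pairs, 0.47% in Neuro-2a, 1.51% in SH-SY5Y, 2.2% in PC-12 and 0.168% in HEK-293T were called in that direction. The calls in the opposite direction were 0 on chromosome 5 in each line, where 0.753% in Neuro-2a, 1.09% in SH-SY5Y, 2.04% in PC-12 and 0.168% in HEK-293T were called over all pairs. In either direction the shares over all pairs were 1.22% in Neuro-2a, 2.6% in SH-SY5Y, 4.25% in PC-12 and 0.337% in HEK-293T. All 10 calls came from 5_141474289, 5_152943676, 5_138556481 and 5_140774630. In the RNA libraries alone 7 of the 10 had the opposite sign, 6 at 5_141474289 and 1 at 5_138556481. That fit compares RNA levels of fragments whose input differs, so it does not test the direction of the ratio to input. The sign was the same in all 11 RNA libraries for 11 of 76 pairs, or 14.5%, against 12.4% of all 1013. The median absolute difference was 1.18 in Neuro-2a, 1.12 in SH-SY5Y, 1.21 in PC-12 and 1.40 in HEK-293T on chromosome 5, against 1.03 in Neuro-2a, 0.95 in SH-SY5Y, 1.00 in PC-12 and 1.10 in HEK-293T over all pairs.

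Between the 4 lines, the RNA level of 0 of 90 chromosome 5 alleles differed by edgeR's quasi-likelihood F test, where 0% of all 1436 alleles did. At an unadjusted p under 0.05 there were 4, where 2.79% of all alleles were under it, with the smallest p at 0.0233 for allele 2 of 5_102434022 with 50 bases in front. That allele held 1524, 1143 and 1219 CPM in Neuro-2a RNA, 434, 816 and 447 CPM in SH-SY5Y, 996 and 1061 CPM in PC-12 and 813, 540 and 728 CPM in HEK-293T. Its level was highest in Neuro-2a and lowest in SH-SY5Y. The allelic ratio differed between lines for 0 of 39 chromosome 5 fragments, where 0% of all 514 did, and DESeq2 and limma-voom also called 0 on chromosome 5 in both comparisons. The calls made in some lines and not in others, at the gamma cluster SNP included, are thus not shown to differ between lines. Over all features, fewer p-values were under 0.05 than chance alone would give, so 0 calls do not show that the lines are alike.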

How the data were processed

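The deposited tables, 1 per cell line, hold raw counts for either allele of each fragment in every RNA and plasmid input library, per the file headers. Per the labels' protocols, transfection was done in triplicate, the libraries are called biological replicates and the input was amplified from the plasmid pool before transfection. Among tools, the submitters' processing notes list limma 3.40.6 only, and no aligner, counter or build is named in the sources used here. No columns of other series were present. Allele bases and fragment sequences were not used here.

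Counts were analysed in R 4.3.3 over each whole table, and p-values were adjusted over it. Libraries were scaled by edgeR's TMM factors, and alleles with a mean count of at least 10 were tested. Main calls come from edgeR 4.0.16 (quasi-likelihood, two-sided, Benjamini-Hochberg adjusted p of 0.05). SEs are the estimate over the root of its F. Allelic and placement effects were fitted with library, allele or placement, and its interaction with RNA. Lines were compared over the 11 RNA libraries. Alternatives were DESeq2 1.42.0 (size factors and test), limma-voom (limma 3.58.1), no minimum count, features with a 0 left out, replicate block, each library left out and RNA libraries alone, the last chosen after seeing the data. Tests were also tried on data simulated from these counts.

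After centring on the line mean, RNA libraries of equal number correlated between lines in 15 of 15 pairs, with r from 0.141 to 0.694. Of the pairs of unlike number, 9 of 30 were over 0.1. Each of these 9 joined a library 2 with a library 3, with r from 0.163 to 0.487. Pairs of equal number without library 1 had r from 0.141 to 0.498. The data thus set library 1 apart between lines but do not pair libraries 2 and 3 by number. The centring itself also ties the libraries of a line. RNA and input libraries of the same number shared only the number (r from -0.0898 to 0.171).

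Named SNPs were those at 5_141474289, 5_152943676 and 5_44743145, others with a call, and per line the highest and lowest activity and the largest allelic effect in each direction; the remaining SNPs were summarised. Of the 18 SNPs, 2 enter all counts but are not reported here one by one, among them 1 of the 13 with a call. Members and gene lists were chosen with earlier results of these data known. Genes came from a RefSeq table of GRCh38.p14.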

Additional observations from a re-analysis of the deposited data

How the results depend on the processing

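With the main setting, chromosome 5 activity calls numbered 3 in Neuro-2a, 10 in SH-SY5Y, 9 in PC-12 and 1 in HEK-293T. In this order of lines, used for all counts given without names here, allelic calls numbered 0, 1, 0 and 0 and placement calls 2, 4, 4 and 0. DESeq2 called 20, 35, 40 and 27 for activity, 7, 2, 8 and 2 for allelic effects and 10, 30, 34 and 15 for placement. Over all features it called 28.9%, 30.7%, 39.8% and 24.6% for activity, 12.7%, 4.49%, 10.7% and 1.82% for allelic effects and 17.8%, 30.3%, 34.7% and 15.7% for placement. With limma-voom, activity calls were 6 in Neuro-2a, 14 in PC-12 and 4 in HEK-293T, where 7.61%, 13.7% and 4.04% of all alleles were called. Its allelic calls were 0 in SH-SY5Y, where 0% of all fragments were called. Its placement calls were 1 in HEK-293T, where 1.52% of all pairs were called. With alleles or pairs holding a 0 left out, SH-SY5Y had 20 activity calls, Neuro-2a 8 and HEK-293T 3. Over all alleles the shares were then 22.7% in SH-SY5Y, 12.7% in Neuro-2a and 7.53% in HEK-293T. Placement calls were then 7 in SH-SY5Y, where 8.01% of all pairs were called. With the replicate block, the library number as a block over RNA and input, activity calls were 0 in each of the 4 lines. The fits of allelic and placement effects already hold the library as a term. Between lines, the replicate block, like every other alternative, gave 0 calls.

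With RNA libraries alone, SH-SY5Y had 1 placement call, on a pair not called in the main setting. In that fit allelic calls were 0 in SH-SY5Y, and placement calls 0 in Neuro-2a and PC-12. There the placement difference at 5_141474289 turned to -1.07 (150 over 50 bases) and -1.28 (150 over 100) in Neuro-2a, to -0.22 and -1.58 in SH-SY5Y and to -1.17 and -1.25 in PC-12, and that of 5_138556481 to -0.57 in SH-SY5Y. The fit leaves out the input, which differs between the fragments.

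Leaving out any 1 input library gave 0 calls in every line for all 3 effects. Leaving out 1 RNA library gave 6 to 33 activity calls in Neuro-2a, 11 to 55 in SH-SY5Y, 75 to 86 in PC-12 and 0 to 34 in HEK-293T. For allelic effects it gave 0 to 16, 0 to 22, 27 to 40 and 0 to 13 calls, and for placement 0 to 21, 4 to 42, 72 to 79 and 0 to 21. The highest count came without RNA library 1 in each line, with activity calls of 33, 55, 86 and 34, where 41.3%, 54.9%, 90.1% and 31.8% of all alleles were called. With 1 PC-12 RNA library left, that library is assumed to vary like the input. The cause of these changes was not tested. Of 34 single results called, 34 kept their call with DESeq2's test, with no minimum count, without 0 counts and without RNA replicate 1, 33 with DESeq2 size factors, 32 without RNA replicate 3, 22 with limma-voom, and 12 of 21 without RNA replicate 2. With the block, 0 of 23 did, and with RNA libraries alone 0 of 11. Depth limits allele 1 of 5_141474289 with 150 bases in front most, at 57 to 74 input counts.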
